A study of Mus musculus with 4 samples.

Results

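Zinc finger protein (Zfp) genes are protein-coding genes whose mouse symbol is Zfp followed by a number, and their E2F1 occupancy was described in mouse embryonic stem cells (ESCs). A peak was counted for a Zfp gene when it overlapped, by at least 1 bp, the window from 1000 bp upstream to 500 bp downstream of any of its transcript starts in GENCODE M1 on mm9. By this rule 76 of 4523 E2F1 peaks were Zfp promoter peaks, and they belonged to 73 of 340 Zfp genes. A further 3913 peaks lay at promoters of other protein-coding genes and served as the comparison. E2F1 ChIP-seq, which sequences the DNA fragments that an E2F1 antibody pulls down from fixed chromatin, was performed on serum ESCs and on 2i ESCs, with 2 biological replicates each. Serum ESCs were kept with fetal calf serum and LIF. 2i ESCs were kept in serum-free Ndiff medium with LIF, the MEK inhibitor PD0325901 and the GSK3 inhibitor CHIR99021, and both were adapted to their medium over 20 days. Neither the labels nor the methods name the ESC line behind these 4 libraries, no genotype is given for them, and no input sample was analysed here. Nothing states whether the replicates came from separate lines or thaws, so that p-values measure the spread between these samples only.

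Most Zfp proteins carry C2H2 zinc fingers, short folds held by a zinc ion that read DNA and are usually repeated in tandem. Many of those with long arrays also carry a KRAB box, which recruits TRIM28 and, through it, the histone methyltransferase SETDB1, and so keeps retrotransposons silent and imprinted regions methylated in ESCs. KRAB zinc finger genes arose by tandem duplication and many lie in clusters, whereas Zfp genes without the box include general transcription factors and chromatin regulators. E2F1 activates genes of the cell cycle from CpG-rich promoters and is held back by the RB family proteins.

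The DNA under the Zfp promoter peaks was GC-rich and CpG-rich, and the letters of an E2F site were rare in it. The following runs are read from the mm9 genome, forward strand. The first set is shown because it holds the 3 matches to TTTCCCGC, TTTCGCGC, TTTGCCGC or TTTGGCGC, the 8-letter E2F forms searched on both strands, in the 300 bp around the centres of the 76 peaks. The set was chosen after the search. Capitals mark the match. The runs lie at chr5:107125350-107125379 and chr5:107003499-107003528 (both Zfp644, at 2 alternative starts) and at chr17:23701239-23701268 (Zfp213).
Zfp644 first peak: tcttagcctgtGCGGCAAAacgcgtccttt
Zfp644 second peak: gcTTTCCCGCtcgcgacgccctgctccccc
Zfp213: ggggataagcaTTTGGCGCttgtactatcc

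The second set shows 4 of the 9 peaks called between the conditions, so that the bases behind a difference can be read, and was chosen after the values were seen. Each run is the longest stretch, within 300 bp around the peak centre, that no annotated exon covers, and capitals mark each CG. They lie at chr8:90484081-90484380 (Zfp423, upstream of the start), chr8:90482809-90483094 (Zfp423, in an intron), chr7:87171370-87171516 (Zfp710) and chr8:74446872-74447048 (Zfp617). The first 3 were higher in serum and the last in 2i.
Zfp423 upstream: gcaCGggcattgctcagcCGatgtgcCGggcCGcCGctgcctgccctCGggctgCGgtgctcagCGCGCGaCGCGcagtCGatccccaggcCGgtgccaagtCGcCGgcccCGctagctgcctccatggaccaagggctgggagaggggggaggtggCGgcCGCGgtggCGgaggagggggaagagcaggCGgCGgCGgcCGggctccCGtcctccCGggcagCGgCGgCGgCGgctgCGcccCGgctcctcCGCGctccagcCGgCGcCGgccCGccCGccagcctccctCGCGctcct
Zfp423 intron: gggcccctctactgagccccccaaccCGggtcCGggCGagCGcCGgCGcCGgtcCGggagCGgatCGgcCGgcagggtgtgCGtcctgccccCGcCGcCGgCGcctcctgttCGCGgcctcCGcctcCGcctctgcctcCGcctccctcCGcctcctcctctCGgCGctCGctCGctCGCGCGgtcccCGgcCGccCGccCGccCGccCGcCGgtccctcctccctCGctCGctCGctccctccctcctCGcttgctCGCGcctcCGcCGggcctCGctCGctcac
Zfp710: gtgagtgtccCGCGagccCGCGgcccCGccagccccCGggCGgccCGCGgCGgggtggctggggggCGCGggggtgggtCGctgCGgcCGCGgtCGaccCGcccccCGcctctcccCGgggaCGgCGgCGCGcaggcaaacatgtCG
Zfp617: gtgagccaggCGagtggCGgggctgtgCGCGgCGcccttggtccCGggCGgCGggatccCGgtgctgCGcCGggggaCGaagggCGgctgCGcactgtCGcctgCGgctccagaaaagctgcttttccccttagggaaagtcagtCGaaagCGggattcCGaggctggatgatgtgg

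The upstream Zfp423 run held 42 CG in 300 bases, and the Zfp617 run held 19 in 177. Over all 76 Zfp promoter peaks the median GC content of the 300 bp window was 77.7%, against 76.7% at other promoter peaks. The median CpG ratio, the number of CG over the number the base composition would give, was 0.98 against 0.99. The E2F letters were in 3.95% of the Zfp windows and in 3.55% of the other promoter windows. Shorter 7-letter forms, TTCCCGC or TTGGCGC, which lie within 2 of the longer ones and were added after the first search, were in 7 of 76 Zfp windows (9.21%) and in 627 of 3913 others (16.0%). CCGGAAG, the core letters of ETS factors, was in 11.8% against 10.1%. GCATGCGC, the core of NRF1, was in 2.63% against 3.04%, and AAGATGG, the core of YY1, in 7.89% against 6.03%. A match is a description of the letters and was not tested as a site.

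E2F1 peaks lay at 21.5% of Zfp genes (73 of 340, 95% Clopper-Pearson interval 17.2% to 26.2%), close to the 19.0% of other protein-coding genes (4154 of 21898, 18.5% to 19.5%). Within the family the share differed widely with what the encoded protein holds. A stretch like the KRAB A box was found, by a fixed letter pattern in the longest protein of each gene, in 139 Zfp genes, of which 6 had a peak (4.32%, 1.60% to 9.16%). Of the 201 Zfp genes without the stretch, 67 had one (33.3%, 26.9% to 40.3%). With a second, looser pattern, added after these counts were seen, 7 of 163 KRAB genes (4.29%) and 66 of 177 others (37.3%) had a peak. The 6 found by the first pattern were Zfp316, Zfp617, Zfp746, Zfp777, Zfp786 and Zfp866. Below, KRAB genes are those in which the first pattern found the stretch. How many KRAB boxes either pattern misses was not measured, so genes without the stretch can include KRAB zinc finger genes. These intervals cover counting error over genes only, and clustered genes are not independent, so that no test was run on these shares.

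The share with a peak also differed with the number of fingers. Among genes whose protein held no finger or 1, 11 of 25 had a peak (44.0%), and among those with 2 to 5 fingers, 21 of 52 (40.4%). The share was 21.0% (22 of 105) for 6 to 10 fingers and 12.03% (19 of 158) for 11 or more. The median was 7 fingers in genes with a peak and 11 in genes without one. Long arrays without the KRAB stretch stood between these values, with 15 of 72 genes (20.8%), against 4 of 86 long arrays with it (4.65%). Zfp365, Zfp839, Zfp259 and Zfp703 were the 4 genes with a peak in which the pattern found no C2H2 finger.

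The share with a peak differed, too, with the distance to other Zfp genes. With no other Zfp gene within 250 kb, 51 of 138 had a peak (37.0%, 28.9% to 45.6%), with 1 or 2 neighbours 10 of 79 (12.7%) and with 3 or more 12 of 123 (9.76%, 5.14% to 16.4%). All 51 solitary genes with a peak lacked the KRAB stretch (51 of 110, 46.4%), and 0 of the 28 solitary genes with it had one, which allows a share of up to 12.3%. Genes with 3 or more neighbours and without the stretch had a peak at 7 of 51 (13.7%) and those with it at 5 of 72 (6.94%). Neighbour number and the KRAB stretch therefore overlap in these counts, and their separate parts were not tested.

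**Figure D1:**
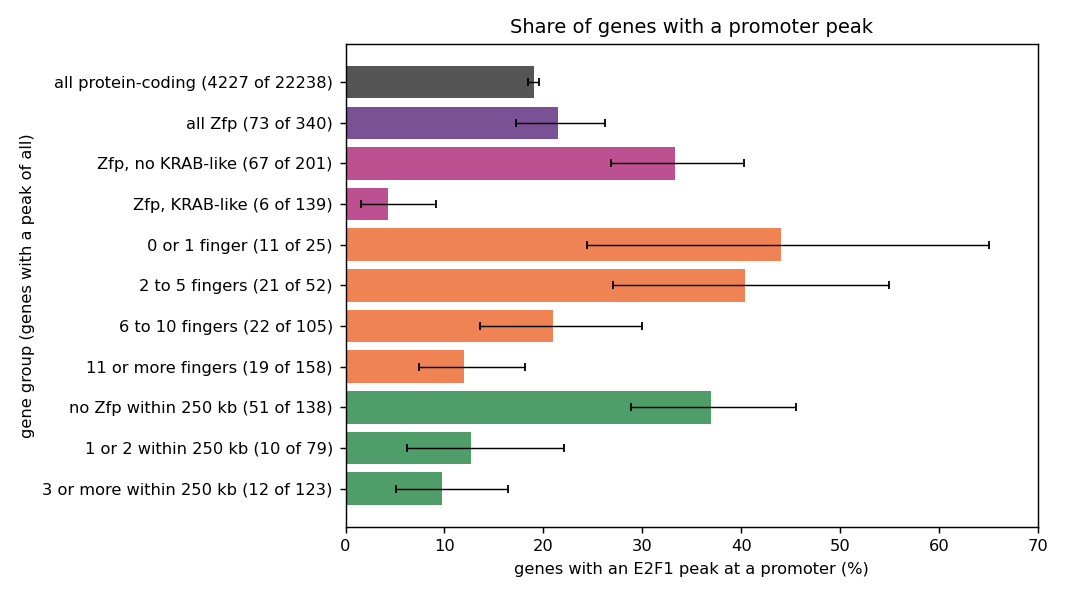
Share of genes with an E2F1 peak at a promoter, in percent on the horizontal axis, for all protein-coding genes and for groups of Zfp genes. Bars are the share, lines its 95% Clopper-Pearson interval, and the counts stand in each label. Zfp genes with a KRAB-like stretch sit at 4.32%, and those without at 33.3%.

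The base composition at the start moved with these shares. The CpG ratio was taken from 250 bp upstream to 50 bp downstream of 1 start per gene. Its median was 0.49 for KRAB Zfp genes and 0.70 for Zfp genes without the stretch. At starts with a ratio of at least 0.6, 61 of 176 Zfp genes had a peak (34.7%), against 3519 of 9940 other genes (35.4%). At starts with a lower ratio these were 12 of 164 (7.32%) and 635 of 11958 (5.31%). Within the CpG-rich starts, 4 of 48 KRAB genes (8.33%, 2.32% to 20.0%) and 57 of 128 genes without the stretch (44.5%, 35.7% to 53.6%) had a peak. The cut of 0.6 was chosen after the data were seen.

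Other zinc finger families, defined by symbol alone, were counted in the same way. Zbtb genes, which join fingers to a BTB domain, had a peak at 15 of 31 (48.4%, 30.2% to 66.9%). Zscan and Zkscan genes, which join them to a SCAN domain, had one at 4 of 18 (22.2%, 6.41% to 47.6%). The median mean normalized count was 115 at the 15 Zbtb peaks and 32.6 at the 4 Zscan and Zkscan peaks, against 77.3 at the Zfp peaks. The median log2 fold change, serum minus 2i, was -0.12 at the former and -1.04 at the latter.

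Along the genome, the largest group of Zfp genes, 86 on chromosome 7, had a peak at 10 (11.6%). On chromosome 6 it was 8 of 16, and 4 of these 8 stood in 1 cluster of 9 Zfp genes that spans 782 kb between positions 47780716 and 48563179. The 4 were Zfp786, Zfp282, Zfp777 and Zfp746, and the pattern found the KRAB stretch in 3 of them. Zfp746, also called PARIS, is a repressor of the gene for PGC-1alpha. The other 5 genes of the cluster, Zfp398, Zfp212, Zfp956, Zfp467 and Zfp775, had no peak.

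Not all Zfp genes known for a role in ESCs had a peak. From a list of 31 Zfp genes with known roles, 30 were annotated under their symbol (Zfp131 was not), and 15 of the 30 had one. Zfp42, also called Rex1 and used as a marker of naive ESCs, had none, and its nearest peak lay 1631 kb away. Zfp57, which keeps imprinted regions methylated, had its nearest peak 42 kb away. Zfp809, which directs silencing of retroviruses, had it 154 kb away, and Zfp296, expressed in ESCs, 4 kb away. Zfp143, Zfp462, Zfp36, Zfp260, Zfp207, Zfp568, Zfp445, Zfp64, Zfp263, Zfp689 and Zfp110 also had no peak in the window. A missing peak says only that none was kept in both replicates of a condition, and no signal is given outside the peaks.

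The window fixes that Zfp promoter peaks lie near a transcript start, and their place within it is given as a description. Their centres had a median of 87.5 bp downstream of the nearest start of the gene, and 61 of 76 lay within 250 bp of it. The extremes were -736 bp, at the upstream Zfp423 peak, and 766 bp, at Zfp91, where a negative distance lies upstream. By the centre, 34 peaks fell in an untranslated exon, 20 in an intron, 12 upstream of the start and 10 in a coding exon. Zfp423, Zfp644, Zfp800 and Zfp866 had 2 peaks each. Zfp646 and Zfp668 shared 1 peak, and 6 peaks were shared with a gene outside the family, at Zfp276, Zfp319, Zfp507, Zfp664 and, for both peaks, Zfp866. At shared peaks the signal cannot be assigned to 1 gene.

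The signal of Zfp promoter peaks was close to that of other promoter peaks. The deposited unit is a normalized count, the reads over a peak divided by a size factor of the sample. The median over the 76 peaks was 60.1 and 82.0 in the serum samples (replicates 1 and 2) and 72.8 and 74.6 in the 2i samples. The corresponding medians over the 3913 other promoter peaks were 62.7, 63.9, 66.1 and 63.6. Zfp peaks were thus lower in serum replicate 1 and higher in the other 3 samples. On the log2(normalized count + 1) scale the difference of medians was -0.06, 0.36, 0.14 and 0.22 in the same order, with a mean of 0.16 ± 0.17 (SD, n = 4). Serum minus 2i of this difference was -0.03 (two-sided exact permutation p = 1), and 2 against 2 samples allow no p below 0.333, so that no difference could have passed. The mean difference was 0.34 over peaks with a mean of at least 50, 0.36 without chromosomes 6 and 8, 0.29 without peaks shared with another gene, 0.10 without serum replicate 2 and 0.086 when the peak centre had to lie in the window.

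**Figure D2:**
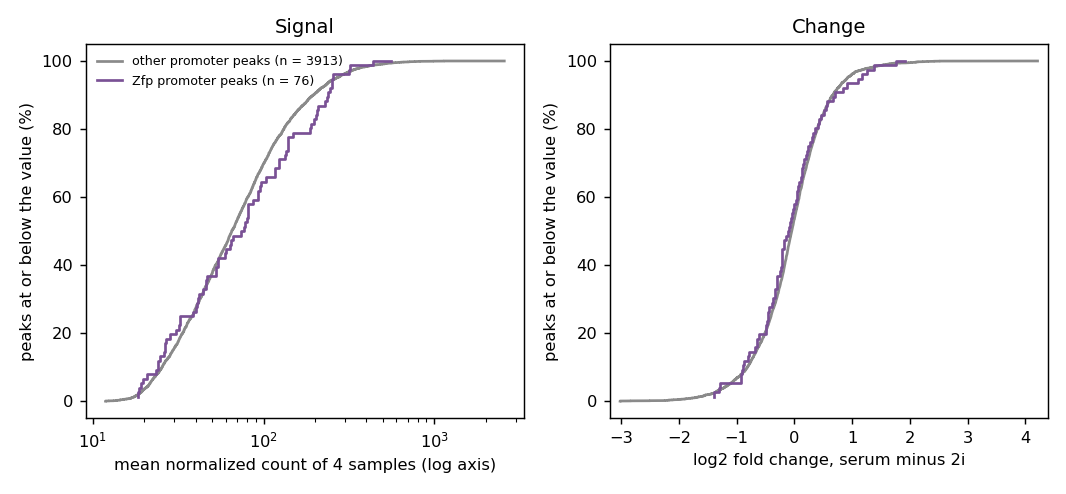
Cumulative share of peaks, in percent on the vertical axis, at or below a mean normalized count of the 4 samples (left, log axis) and at or below a log2 fold change of serum minus 2i (right), for 76 Zfp and 3913 other promoter peaks. Both curves nearly coincide for the change, whose medians are -0.09 and -0.05, and differ most at the higher signals, with medians of 77.3 and 65.1.

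These peaks rested on few reads in the shallowest library. From the smallest step between low values, a single read stood for 1.74 and 0.953 normalized counts in the serum samples and for 0.560 and 1.04 in the 2i samples, each in the order of replicates 1 and 2. The median Zfp peak then held 34.5, 86, 130 and 71.5 reads, and the lowest held 4, 12, 22 and 18. Over all peaks the libraries held 248878 to 710519 reads. On the log2(normalized count + 1) scale, serum replicates were more than 2-fold apart at 10 of 76 Zfp peaks (13.2%, against 9.15% of other promoter peaks), and 2i replicates at 2 (2.63%, against 5.88%). Both Zfp800 peaks were among the former, with 33.1 and 170 normalized counts in the serum replicates at 1 and 45.3 and 167 at the other.

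The strongest Zfp promoter peaks, by the mean over the 4 samples, were those at Zfp532, Zfp704, Zfp777, Zfp217 and Zfp740. Zfp532 encodes a member of a chromatin complex with ZMYND8 and Zfp592, and its peak, in an intron at chr18:65740171-65741048, ranked 29 of 4523 with 784 and 820 normalized counts in serum and 237 and 401 in 2i. Zfp217 encodes a component of corepressor complexes, and its peak had 387 and 366 in serum and 206 and 312 in 2i. At Zfp740 the values were 317 and 351 against 156 and 200. All 3 peaks were higher in both serum replicates than in either 2i replicate.

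Zfp777, a KRAB gene of the chromosome 6 cluster, went the other way, with 204 and 313 in serum and 396 and 377 in 2i. At Zfp704 the replicates overlapped, with 378 and 271 in serum and 318 and 794 in 2i. Of these 5 peaks Zfp532 alone was called (below). The log2 fold changes, serum minus 2i, were 0.91 ± 0.25 (SE) at Zfp740, 0.57 ± 0.27 at Zfp217, -0.61 ± 0.28 at Zfp777 and -0.65 ± 0.39 at Zfp704, with limma adjusted p of 0.103, 0.302, 0.278 and 0.409. Zfp740 was called without 2i replicate 2 (1.09), and Zfp704 without 2i replicate 1 (-1.31), while it was 0.0087 without 2i replicate 2. Zfp217 was 0.27 without 2i replicate 1 and 0.33 with cyclic loess normalization, and Zfp777 was -0.30 without serum replicate 1.

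The design asks where E2F1 occupancy differs between serum and 2i ESCs. At Zfp promoters 9 of 76 peaks were called, of which 6 were higher in serum and 3 in 2i. To be called, a peak needed at least a doubling or halving (log2 fold change beyond 1 or -1) and an unadjusted limma p below 0.05, from a fit to all peaks on the log2(normalized count + 1) scale. Among the other promoter peaks 9.33% were called. Those with more signal in serum made up 3.81% and those with more in 2i 5.52%, and over all peaks the called share was 10.3%. The 11.8% at Zfp promoters was near these shares. After Benjamini-Hochberg adjustment 2 Zfp peaks were under 0.05, both at Zfp423, against 1.35% of other promoter peaks. The count depended on single samples at both sets of peaks. Without 2i replicate 1, 4 Zfp peaks were called (5.26%, against 7.33% of other promoter peaks), and without serum replicate 2, 15 (19.7%, against 13.7%). In the latter the balance turned, with 4 Zfp peaks higher in serum and 11 in 2i, where 5.01% of other promoter peaks were higher in serum and 8.66% in 2i.

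At 40 of 76 Zfp peaks the serum and 2i replicates occupied separate ranges (52.6%, against 48.9% of other promoter peaks), with serum above 2i at 18 and below it at 22. The median log2 fold change was -0.09, against -0.05 at other promoter peaks. It was positive at 33 Zfp peaks and negative at 43, and 49 of 76 (64.5%) lay within 0.5 of 0, as did 64.0% of the others. Calls were more frequent at weak peaks in both sets. Below a mean of 50 normalized counts 5 of 27 Zfp peaks were called (18.5%, against 14.3% of others), and above 100 it was 2 of 28 (7.14%, against 6.51%).

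**Figure D3:**
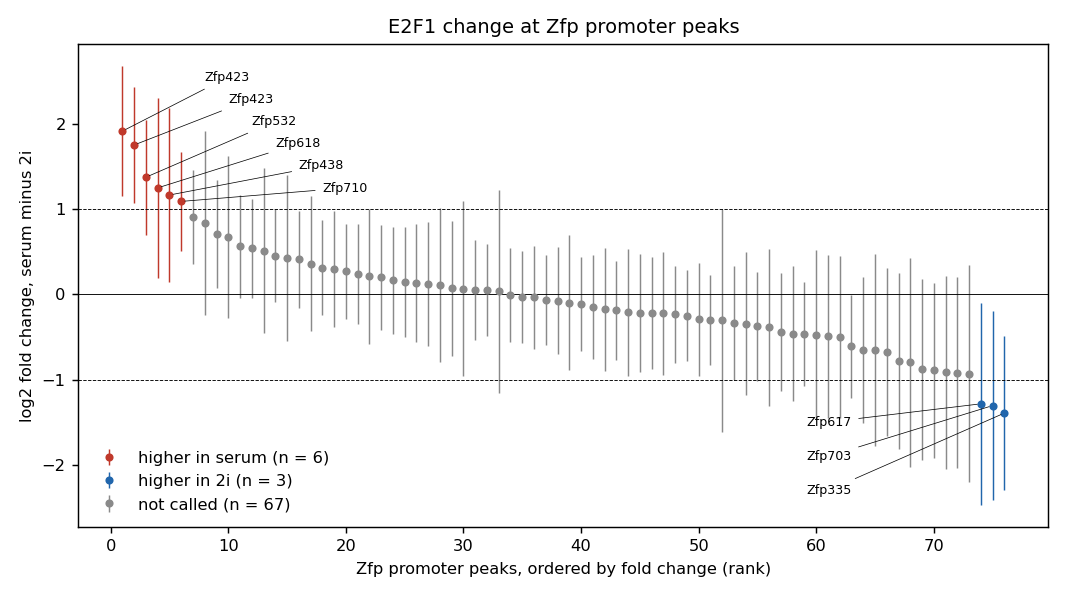
Log2 fold change, serum minus 2i, of the 76 Zfp promoter peaks in order of size. Points are the limma estimates, lines their 95% confidence intervals, and dashed lines mark a log2 fold change of 1 in either direction. The 9 called peaks are named, and 49 of the 76 lie within 0.5 of 0.

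Zfp423 had the largest serum-higher change of the family, at both of its peaks. Zfp423 is a transcription factor of many fingers that acts with SMAD proteins in BMP signaling and restrains early B-cell factor, and the pattern counted 27 fingers in it. The upstream peak, chr8:90484049-90484411, had 106 and 85.8 normalized counts in serum and 27.4 and 21.9 in 2i. The intronic peak, chr8:90482744-90483172, had 118 and 111 in serum and 36.4 and 30.3 in 2i. Both serum replicates lay well above both 2i replicates at each peak. The log2 fold changes were 1.92 ± 0.35 (SE, adjusted p = 0.0267) and 1.76 ± 0.31 (adjusted p = 0.0240) in limma, and 99.4% and 99.3% of other promoter peaks had a smaller value. Both stayed called without any 1 sample. An adjusted p below 0.05 was not kept at either peak when any 1 sample was left out. Nor was it kept in limma without a variance trend, where the adjusted p of these peaks was 0.0623 and 0.0658. Both peaks belong to 1 promoter and are not independent examples.

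Zfp521, a relative of Zfp423 in which the pattern also counted 27 fingers, had a weak peak with overlapping values. It had 13.9 and 28.6 normalized counts in serum and 14.6 and 26.1 in 2i, and its log2 fold change was 0.03 ± 0.54 (SE), with a 95% interval of -1.15 to 1.22 and a negative sign after rescaling to the same total. A 2-fold change in either direction lies within that interval and cannot be told from none.

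Zfp532 and Zfp710 were the strong peaks among those higher in serum. Zfp532, whose values are given above, had a log2 fold change of 1.38 ± 0.31 (SE, limma adjusted p = 0.0593), and it fell to 0.999 without 2i replicate 1. Zfp710, in an untranslated exon at chr7:87171101-87171631, had 270 and 241 normalized counts in serum and 101 and 141 in 2i. Its log2 fold change was 1.09 ± 0.26 (adjusted p = 0.0757), and it was under 1 without 2i replicate 1 (0.85) and with cyclic loess normalization (0.99). Neither peak overlapped between the conditions.

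Zfp618 and Zfp438 were called on weak peaks. At Zfp618, whose protein binds UHRF2, the serum values were 33.1 and 83.9 and the 2i values 23.5 and 19.8 (log2 fold change 1.25 ± 0.48, adjusted p = 0.209). The change rested on serum replicate 2, without which it was 0.59, and the call was also lost without 2i replicate 2 (1.13). At Zfp438 they were 33.1 and 40.0 against 12.3 and 19.8 (1.17 ± 0.46, adjusted p = 0.224). That call was lost without serum replicate 2 (1.03), without 2i replicate 1 (0.85) and with a pseudocount of 8 (0.90).

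The 3 peaks higher in 2i were all weak, with a mean under 50. Zfp335 encodes a factor tied to histone H3 lysine methylation and needed in lymphoid and neural development. Its intronic peak at chr2:164736724-164737195 had 27.9 and 17.2 normalized counts in serum and 67.2 and 52.2 in 2i, a log2 fold change of -1.39 ± 0.41 (SE, limma adjusted p = 0.121). It lost the call without 2i replicate 1 (-1.22).

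Zfp703, a repressor of the NET family amplified in luminal breast cancer, had 10.5 and 28.6 in serum and 44.2 and 44.9 in 2i (-1.31 ± 0.51, adjusted p = 0.213). Zfp617, the only called gene in which the first pattern found the KRAB stretch, had 6.97 and 14.3 in serum and 28.0 and 24.0 in 2i (-1.29 ± 0.54, adjusted p = 0.243). In serum replicate 1 these are values of few reads, since 1 read is worth 1.74. Without serum replicate 1 the changes were -0.62 and -0.82 and no longer called. Without 2i replicate 1 (-1.32 and -1.18) and without 2i replicate 2 (-1.30 and -1.39) both calls were lost as well, and Zfp617 was also lost with a pseudocount of 8 (-0.89) and cyclic loess (-0.69).

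**Figure D4:**
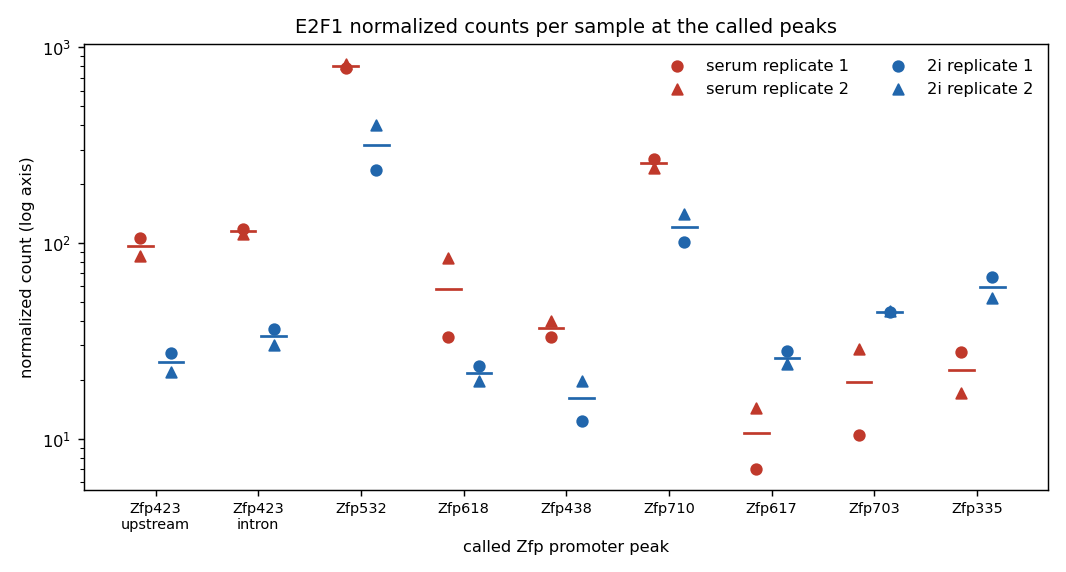
Normalized counts per sample, on a log axis, at the 9 called Zfp promoter peaks. Red symbols are serum, blue symbols 2i, circles replicate 1, triangles replicate 2, and short bars the mean of the 2 replicates. Serum and 2i symbols do not overlap at any of the 9, which were selected on these same values, and 48.9% of other promoter peaks do not overlap either. The Zfp423 peaks have 85.8 to 118 in serum and 21.9 to 36.4 in 2i.

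Beyond the called peaks, 3 had an unadjusted limma p below 0.05 without the fold change, and these were Zfp740, Zfp777 and Zfp281. With the called peaks, 12 of 76 Zfp peaks were below 0.05. Among other promoter peaks it was 666 of 3913, of which 365 were called. Zfp281, a zinc finger factor of the pluripotency network in ESCs, had 108 and 120 in serum and 82.3 and 58.4 in 2i (log2 fold change 0.71 ± 0.29, limma adjusted p = 0.233), and was 0.46 without 2i replicate 2. Zfp365 had 24.4 and 39.1 against 12.9 and 21.9 (0.84 ± 0.49, adjusted p = 0.394). At the other end were Zfp866, with 6.97 and 20.0 in serum and 26.9 and 20.9 in 2i (-0.93 ± 0.58) at its upstream peak, Zfp516, a regulator of brown fat genes, with 10.5 and 22.9 against 32.5 and 28.2 (-0.92 ± 0.51), and Zfp3 with 13.9 and 11.4 against 32.5 and 18.8 (-0.92 ± 0.51). None of these 3 was called. Without serum replicate 2, Zfp866 (-1.63) and Zfp516 (-1.45) were called, and without serum replicate 1 they were -0.23 and -0.39. Zfp3 was -0.54 without 2i replicate 1 and -0.39 with cyclic loess normalization.

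Values at the KRAB genes were mostly lower in serum, on few peaks. Of the 7 peaks at the 6 KRAB genes, 6 had a negative log2 fold change (as did 2100 of the 3913 other promoter peaks) and 1 was called (14.3%, against 11.6% of the other Zfp peaks and 9.33% of other promoter peaks), with a median of -0.61, against -0.03 for the 69 peaks of genes without the stretch, of which 37 were negative. These values rested on single samples. Without serum replicate 1 the KRAB median was -0.23, with 5 of 7 negative and 0 called, and without serum replicate 2 it was -1.13, with 4 called (57.1%, against 13.7% of other promoter peaks). Zfp316 was the exception (36.6 and 42.9 in serum, 18.5 and 32.3 in 2i, 0.67 ± 0.43). Zfp746 had 249 and 212 against 275 and 271 (-0.25 ± 0.24), and Zfp786 had 17.4 and 48.6 against 64.9 and 45.9 (-0.88 ± 0.48). The KRAB peaks were weak, with a median mean of 32.6 against 79.5, and 3 of the 7 lie on chromosome 6. The peaks at Zfp617 and Zfp866 lie on chromosome 8, and both Zfp866 peaks are shared with a gene outside the family. Without chromosomes 6 and 8 only 1 KRAB peak remained, that at Zfp316, and it was positive (0.67). Weak peaks had lower values in general, since below a mean of 50 the median log2 fold change was -0.39 over the 27 Zfp peaks and -0.22 over other promoter peaks. The parts of signal strength and of chromosome in the KRAB values were not tested.

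Other promoter peaks had the lowest median log2 fold changes on chromosomes 6, 11 and 16. Of the 9 Zfp peaks on chromosome 6, 8 had a negative log2 fold change, with a median of -0.61, and Zfp384 was the exception (183 and 234 in serum, 180 and 163 in 2i, 0.27 ± 0.25, and 0.094 without serum replicate 2). Of the 196 other promoter peaks there, 79.1% were negative, with a median of -0.39. Without serum replicate 1 the Zfp median was -0.16, with 5 of 9 negative, and the median of the others was -0.12, while without serum replicate 2 these medians were -0.92 and -0.64. On chromosome 11 these values were 74.7% and -0.27, with both Zfp peaks negative, and on chromosome 16 they were 69.9% and -0.26, with the 1 Zfp peak negative. Outside chromosome 6, 32 Zfp peaks were positive and 35 negative, with a median of -0.03. An extra copy of chromosomes 6 and 8 occurs in the E14 line of ESCs, and whether copy number differs between these libraries was not tested. Without chromosomes 6 and 8, 5 of 56 Zfp peaks were called (8.93%, against 9.09% of other promoter peaks), 4 higher in serum and 1 in 2i, since both Zfp423 peaks, Zfp617 and Zfp703 lie on chromosome 8, where the median of other promoter peaks was -0.06.

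**Figure D5:**
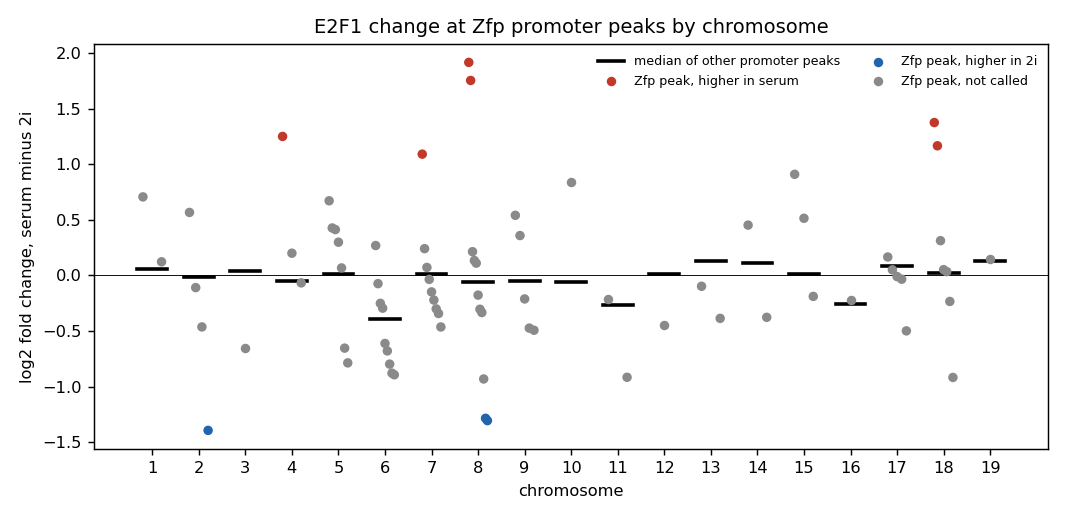
Log2 fold change, serum minus 2i, of each Zfp promoter peak by chromosome. Points within a chromosome are spread sideways in order of their value, colors mark the call, and black bars are the median of the other promoter peaks. On chromosome 6 the points and the bar lie mostly below 0, and the called peaks of chromosome 8 lie at both ends.

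Among the 15 listed genes with a peak, which carry 16 peaks, 3 peaks were called, the 2 at the Zfp423 promoter and that at Zfp335, where 9.33% of other promoter peaks were called. Of the 16, 10 were positive and 6 negative. Zfp598, a ubiquitin ligase of stalled ribosomes, had 131 and 148 in serum and 129 and 151 in 2i (-0.01 ± 0.25, 95% interval -0.56 to 0.54). Zfp161, also called ZF5, had 244 and 237 against 251 and 215 (0.05 ± 0.24, -0.48 to 0.59), and Zfp91, a ubiquitin ligase, 293 and 218 against 180 and 290 (0.15 ± 0.29), with signs that turned negative under cyclic loess normalization. At these 3 peaks the intervals leave out a 2-fold change.

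Zfp706, found in screens for exit from self-renewal, had 190 and 184 in serum and 177 and 257 in 2i (-0.19 ± 0.26). Zfp219 had 294 and 257 against 183 and 220 (0.45 ± 0.25, and 0.28 with cyclic loess normalization), with serum above 2i in both replicates. Zfp148 had 61.0 and 83.9 against 86.8 and 80.3 (-0.22 ± 0.30), and Zfp451, a SUMO ligase, 55.8 and 82.9 against 71.7 and 54.2 (0.12 ± 0.33). Zfp367 had 127 and 58.1 against 96.9 and 87.6 (-0.10 ± 0.36), and Zfp106, an RNA-binding protein, 36.6 and 54.3 against 73.3 and 52.2 (-0.46 ± 0.36). Leaving out 1 sample moved Zfp106 between -0.74 (without serum replicate 2) and -0.18 (without serum replicate 1), with -0.22 without 2i replicate 1. Apart from Zfp219, the replicates of the conditions overlapped at each of these peaks. None of these 6 peaks was called.

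Peaks were also counted at a list of 19 genes tied to KRAB zinc finger proteins, cofactors apart from Rbak. Of these 18 were annotated, and 7 had a promoter peak. Trim28, the corepressor that the KRAB box binds, had 1002 and 830 normalized counts in serum and 402 and 629 in 2i (log2 fold change 0.86 ± 0.32, adjusted p = 0.197), and was not called. It was called without 2i replicate 2 (1.18), and the change was 0.54 without 2i replicate 1 and 0.41 with cyclic loess normalization. Dnmt3b, a de novo DNA methyltransferase, had 169 and 249 against 72.2 and 105 (1.22 ± 0.30, adjusted p = 0.0758) and was the 1 cofactor called of 7, where 9.33% of other promoter peaks were called, although it was under 1 without serum replicate 2 (0.95) and without 2i replicate 1 (0.95). Smarcad1, Morc3, Dnmt3a, Hdac2 and Chd3 were not called, with log2 fold changes of 0.39, 0.37, 0.06 (negative after rescaling or cyclic loess), -0.28 and -0.75, and Chd3 was called without serum replicate 2 (-1.08) and was -0.43 without serum replicate 1. Smarcad1 was 0.20 without serum replicate 2 and 0.14 with cyclic loess, and Morc3 was 0.24 with cyclic loess. Setdb1, Atf7ip, Cbx1, Cbx3, Cbx5, Dnmt1, Uhrf1, Dnmt3l, Hdac1, Chd4 and Rbak had no promoter peak.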

How the data were processed

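E2F1 ChIP-seq was analysed in 2 serum and 2 2i samples, grouped by their labels. As the methods and the submitters' processing notes state, the authors mapped read pairs with BWA (mm9), discarded duplicates and blacklisted regions, ran MACS2 per sample, retained peaks found in both replicates of a condition, pooled the serum and 2i sets and counted reads with bedtools. The deposited unit is a signal per peak and sample, counts scaled by 1 size factor each, so that peaks seen in 1 replicate only are absent. Whether deposited starts count from 0 or 1 is not stated, and they were taken as printed. Members and gene lists were chosen with earlier results of these data known.

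A limma model (3.58.1 in R 4.3.3, eBayes with a variance trend) was fitted to the 4523 peaks of the 4 samples with a pseudocount of 1, after tests on simulated data. Annotation used GENCODE M1, and sequence the NCBIM37 genome, with Python 3.11.15, numpy 2.4.6, pandas 2.3.3 and scipy 1.17.1. Fingers (C, 2 to 4 residues, C, 12 residues, H, 3 to 5 residues, H) and KRAB stretches were searched in proteins translated from the longest coding transcript of each gene. Reads behind each value came from the step between low values, and the Clopper-Pearson intervals of shares and the floors cover counting error only, while those of fold changes come from the SE of limma. Genes named with values were the 5 strongest peaks, the 6 largest changes in each direction, every called peak, and the listed Zfp and cofactor genes, and others were named after their values were seen. Alternatives are given in the closing section.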

Additional observations from a re-analysis of the deposited data

How the results depend on the processing

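Nothing states whether same-numbered samples belong together, and the correlation of their deviations across peaks (0.05) cannot settle it. With the replicate block 9 Zfp peaks were called (11.8%, against 10.02% of other promoter peaks). Of these 6 were higher in serum, as were 3.83% of other promoter peaks. With the block 6 Zfp peaks in place of 2 passed the adjusted threshold, and the share of other promoter peaks that passed was not counted. Without a variance trend 0 Zfp peaks passed the adjusted threshold, and 9 were still called at the unadjusted p (11.8%, against 9.61% of other promoter peaks). With only peaks of a mean of at least 50, which was added after seeing the data for the gene count, 47 Zfp genes had a peak, 4 peaks were called (8.16%, against 6.19%), 0 of them higher in 2i, and the signal difference was 0.34. Without chromosomes 6 and 8, 5 were called (8.93%, against 9.09% of other promoter peaks), 1 of them higher in 2i, and the signal difference was 0.36. Rescaling to the same total shifted every median log2 fold change alike, from -0.03 to -0.12 over all peaks, to -0.17 over Zfp peaks and to -0.14 over other promoter peaks, so that Zfp minus other stayed at -0.04. Leaving out 1 replicate at a time gave 4 to 15 calls (5.26% to 19.7%, against 7.33% to 13.7% of other promoter peaks), 3 to 6 higher in serum, 1 to 11 higher in 2i, and a median log2 fold change of -0.16 to 0.0022. The lowest count came without 2i replicate 1 and the highest without serum replicate 2, the cause of which was not tested. Of the 35 peaks named by rule, 8 kept their log2 fold change within 1.5 times under every left-out replicate, pseudocount and scaling tried, at Dnmt3b, Zfp335, Zfp423 (both), Zfp438, Zfp532, Zfp710 and Zfp740. Near 0 the sign was not fixed. With rescaling, whose common shift by itself turns small positive values, Dnmt3a was -0.025, Zfp161 -0.039 and Zfp521 -0.051, and with cyclic loess Dnmt3a was -0.010, Zfp161 -0.12 and Zfp91 -0.032. Without 1 replicate, the ranges that crossed 0 were -0.16 to 0.29 at Dnmt3a, -0.63 to 0.082 at Hdac2, -0.45 to 0.0067 at Zfp148, -0.060 to 0.16 at Zfp161, -0.65 to 0.46 at Zfp367, -0.16 to 0.41 at Zfp451, -0.46 to 0.53 at Zfp521, -0.12 to 0.10 at Zfp598, -1.31 to 0.0087 at Zfp704, -0.46 to 0.079 at Zfp706 and -0.20 to 0.49 at Zfp91. The other windows, the centre rule, protein-coding transcripts only, symbols with a suffix and the loss of shared peaks kept each count within 1.5 times, while the signal difference of 0.16 became 0.086 under the centre rule and 0.29 without shared peaks. The planned count tests with edgeR and DESeq2 were not run, because the reads behind the deposited values were inferred here and used for depth only. Weak peaks in serum replicate 1, with as few as 4 reads, limit what can be detected.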
